A study of Mus musculus with 6 samples.

Results

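Transcripts of 9 genes of steroid hormone signalling were followed in the uterine luminal layer and in blastocysts of mice on day 4 of pregnancy. The genes were chosen by name, and all 9 were found among the 23420 genes of each table. They were 3 nuclear receptors, Esr1 (estrogen receptor alpha), Pgr (progesterone receptor) and Nr3c1 (glucocorticoid receptor), the membrane component Pgrmc1, the estrogen-induced gene Greb1, the Hsp90 cochaperones Fkbp4 and Fkbp5, and the p160 coactivators Ncoa1 and Ncoa3.

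Each of the 6 groups was 1 library. All were collected at 8 pm on day 4. Control dams were Lif-floxed/floxed without Cre and received PBS. The eKO dams were Lif-floxed/floxed Ltf-Cre/+ and received PBS, and the eKO + rLif dams had the same alleles and were injected with recombinant Lif, 20 µg per head each time, at 10 am and again at 6 pm, which left 2 h until tissue was taken. All 3 groups of dams therefore carried the floxed allele on both chromosomes. The Cre, expressed from the lactoferrin gene, acts in the uterine epithelium and leaves Lif of stroma, muscle and embryo intact. The luminal layer was cut out by laser microdissection and its RNA pooled over several animals. The blastocysts were flushed and pooled, and their genotype is labelled Lif-floxed/+ in all 3 groups. There were no replicates, so no difference below was checked against the spread between animals and no p-value is given.

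Steroid receptors are transcription factors that wait for their hormone in a complex built around the chaperone Hsp90. Fkbp4 and Fkbp5 compete for a place in that complex, and Fkbp4 favours hormone binding by the progesterone receptor whereas Fkbp5 restrains it and is itself induced through the glucocorticoid and progesterone receptors. Once hormone is bound, the receptor binds DNA and recruits p160 coactivators such as Ncoa1 and Ncoa3. In the mouse uterus, progesterone acts on both epithelium and stroma to prepare for attachment of the blastocyst, and a brief rise of estrogen on day 4 induces Lif.

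The promoters of the 3 genes that passed the size limit in the luminal layer are shown first, since their order of levels is what the results below turn on. They run from 250 bases before to 50 bases after a transcription start, 5′ to 3′ on the strand of the gene, and come from RefSeq (GRCm38.p6). RefSeq promoters were matched for 7 of the 9 genes, which gave 9 windows of 300 bases, as Esr1 and Greb1 had more than 1 start. Capitals mark the letters GGTCA or their reverse complement, the core of the estrogen response element. Pgr had a single window at chr9:8899583-8899882 on the plus strand, with no match to any motif searched. Greb1 had windows at chr12:16800837-16801136 and chr12:16757190-16757489, and Fkbp5 at chr17:28486100-28486399, all on the minus strand.
Pgr: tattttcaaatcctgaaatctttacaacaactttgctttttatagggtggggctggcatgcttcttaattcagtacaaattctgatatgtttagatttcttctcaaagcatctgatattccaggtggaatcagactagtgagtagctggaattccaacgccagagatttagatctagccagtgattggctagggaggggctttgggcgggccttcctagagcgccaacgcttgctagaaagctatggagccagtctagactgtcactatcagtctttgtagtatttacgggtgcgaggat
Greb1, first window: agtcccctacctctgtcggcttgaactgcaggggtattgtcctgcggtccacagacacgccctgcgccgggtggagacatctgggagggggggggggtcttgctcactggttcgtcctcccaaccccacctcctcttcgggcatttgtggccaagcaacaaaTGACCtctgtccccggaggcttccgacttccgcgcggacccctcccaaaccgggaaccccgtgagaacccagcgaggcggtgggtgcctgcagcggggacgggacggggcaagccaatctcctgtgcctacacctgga
Greb1, second window: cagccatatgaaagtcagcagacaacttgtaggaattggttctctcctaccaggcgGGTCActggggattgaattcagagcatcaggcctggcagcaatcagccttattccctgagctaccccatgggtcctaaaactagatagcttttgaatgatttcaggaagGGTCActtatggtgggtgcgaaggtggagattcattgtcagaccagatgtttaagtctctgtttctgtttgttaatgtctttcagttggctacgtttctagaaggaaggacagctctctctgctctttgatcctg
Fkbp5: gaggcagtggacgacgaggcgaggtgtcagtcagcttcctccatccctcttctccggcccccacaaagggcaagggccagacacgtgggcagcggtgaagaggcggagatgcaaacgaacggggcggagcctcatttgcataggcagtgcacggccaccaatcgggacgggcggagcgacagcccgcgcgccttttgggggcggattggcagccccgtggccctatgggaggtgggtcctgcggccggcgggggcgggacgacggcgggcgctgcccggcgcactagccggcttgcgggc

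Both strands of every window were searched for 5 motifs. The full palindromic estrogen element GGTCANNNTGACC was found in 0 of the 9 windows and in 0.0700% of 32851 mouse promoters of the same length. Its core GGTCA, which is contained in the full element, was found in 3 of the 9 windows and in 40.5% of all promoters. These were 1 window of Esr1, at 15 bases past the start, and both windows of Greb1, at positions -88, -194 and -85 from the start. The full progesterone and glucocorticoid element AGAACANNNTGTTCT was found in 0 of 9 windows and in 0.00913% of all promoters, and its core AGAACA in 2 of 9 (Ncoa1 and Pgrmc1) and in 19.0%. The STAT element TTCNNNGAA, the kind of site bound by the Stat3 factor that Lif activates, was found in 1 of 9 windows, as TTCTAGGAA at position -188 of the second Esr1 window (chr10:4709908-4710207), and in 8.30% of all promoters. The windows also differed in composition. Pgr had 43.7% G and C with 6 CpG dinucleotides and the second Greb1 window 46.3% with 3, below the median of 52.7% and 7 CpG over all promoters. Fkbp5 had 70.7% with 32 CpG and Fkbp4 65.3% with 33.

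Total counts were 23850565 to 28460465 in the 3 luminal libraries and 18996158 to 19638852 in the 3 blastocyst libraries. In the luminal layer the targeted gene was counted only in the library labelled eKO. Lif (chromosome 11, 4257568 to 4272514, plus strand, GRCm38/mm10) was counted 28 times in the library labelled eKO and had 0 counts in both others, which put the library labelled eKO at least 8.20-fold higher than that labelled control. Counts were summed over the whole gene, so reads from exons outside the deleted part would be included. Reads from stroma, where the Cre leaves Lif intact, would be included also. The study places Lif before embryo attachment in the uterine glands, whose markers were low in these libraries, as given below. Luminal libraries are therefore named by their labels throughout, and every luminal direction below is a direction between labelled libraries. Whether the luminal libraries labelled control and eKO were exchanged was not tested, and an exchange would turn the sign of each luminal ratio of eKO to control. In blastocysts, Lif had 1447, 1736 and 1250 counts in the control, eKO and eKO + rLif libraries.

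The labelled tissues were checked against marker genes. The epithelial keratins Krt8 and Krt18 had at least 15790 counts in each of the 6 libraries, as both luminal epithelium and trophectoderm make them. The embryonic genes Nanog and Pou5f1 had 0 counts in all 3 luminal libraries and 2094 to 8033 in the blastocyst libraries. The luminal libraries also held stromal transcripts. The 11 stromal markers summed to 858, 1336 and 906 CPM (counts scaled to a common library size by the TMM method) in the control-, eKO- and eKO + rLif-labelled libraries, and 9 immune markers to 1385, 1321 and 1563 CPM. Smooth muscle markers summed to 102, 97.7 and 64.2 CPM, endothelial markers to 55.0, 73.9 and 95.1 CPM and gland markers to 16.1, 11.7 and 33.3 CPM in the same order. The gland gene Foxa2 had 3, 0 and 10 counts. Lyz2 alone made up 745, 612 and 549 CPM of the 3 immune sums, so these sums mostly hide the other immune markers. Singly, 7 of the 9 immune markers were higher in the library labelled eKO + rLif than in that labelled control, and 2 were lower. The median of these log2 ratios was 0.66. Between the labels eKO and control, 4 were higher and 5 lower, and the median was -0.04.

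Levels of the 9 genes were first compared with each other per length, as TPM, a transcript level computed from counts and exon length and scaled to the same sum in every library. Their order was the same in all 3 luminal libraries. It ran from Pgrmc1 and Fkbp4 at the top through Esr1, Fkbp5, Pgr, Nr3c1, Ncoa3 and Ncoa1 to Greb1. Pgrmc1 reached 719.8, 672 and 362 TPM and Fkbp4 700.0, 445 and 321 TPM in the control-, eKO- and eKO + rLif-labelled libraries. Their 95% intervals nearly touched in the library labelled control, at 709.6 to 730.0 TPM for Pgrmc1 and 691 to 709 TPM for Fkbp4. Of the other neighbours, Pgr and Nr3c1 overlapped in the library labelled control, at 5.98 TPM (5.51 to 6.48) and 5.70 TPM (5.22 to 6.21). Nr3c1 and Ncoa3 overlapped in the libraries labelled control and eKO + rLif, and Fkbp5 and Pgr in that labelled eKO + rLif. These intervals cover counting error only, because PCR reads without molecular identifiers are not independent molecules. In blastocysts Fkbp4 came first in all 3 libraries, followed by Pgrmc1, Ncoa3, Fkbp5, Ncoa1, Nr3c1 and Esr1. Pgr and Greb1 took the last places, and neighbours among Esr1, Pgr and Greb1 had overlapping intervals.

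**Figure D1:**
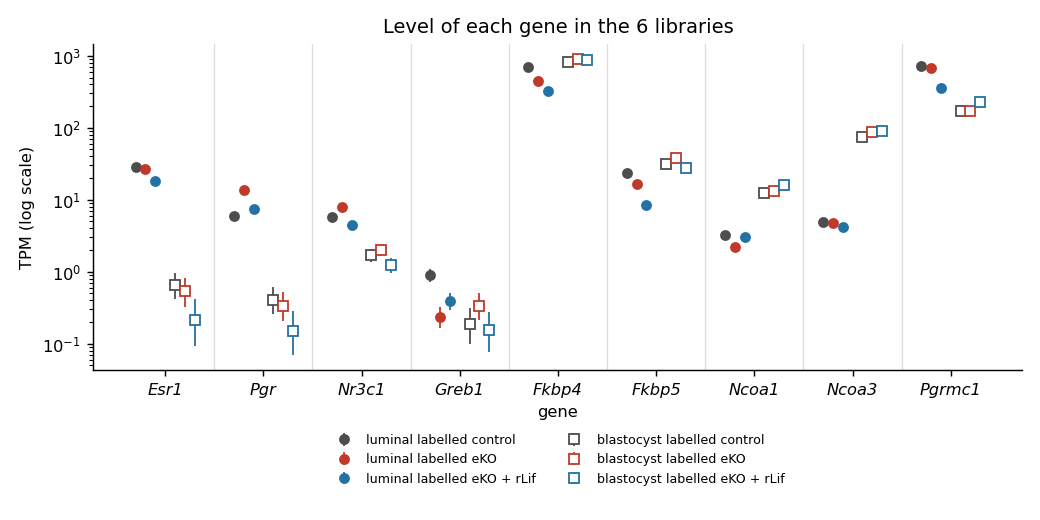
Level of each of the 9 genes in TPM (log scale) in the 6 libraries, 1 point per library, with luminal libraries as filled circles, blastocyst libraries as open squares and 95% counting intervals as bars. Esr1 and Pgr lie at 5.98 TPM or more in every luminal library and at 0.656 TPM or less in every blastocyst library, whereas Ncoa3 lies at 4.94 TPM or less in the luminal layer and 75.3 TPM or more in blastocysts.

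For the comparisons between libraries of 1 tissue, the ratio of CPM was taken with its exact 95% interval, and a gene was called when the whole interval lay past a 2-fold difference either way, a log2 ratio of 1. Between the luminal libraries labelled eKO and control, 2 of the 9 genes were called, Pgr higher and Greb1 lower, where 17.2% of the 15694 genes measured were called. Between those labelled eKO + rLif and eKO, 0 of 9 were called against a background of 15.6%, and between those labelled eKO + rLif and control 1 of 9, Fkbp5 lower, against 9.16%. All 9 genes passed the minimum of 10 counts over the 3 libraries in both tissues. These comparisons share libraries with each other, so they are not independent.

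Among the nuclear receptors, Pgr differed most. Pgr (chromosome 9, 8899833 to 8968611, plus strand) had 594, 1736 and 928 counts in the luminal control-, eKO- and eKO + rLif-labelled libraries, which were 23.5, 60.5 and 35.6 CPM. The library labelled eKO was the highest, and the one labelled eKO + rLif lay between the others. The log2 ratio was 1.36 (95% interval 1.23 to 1.50) for the label eKO against control, a 2.57-fold difference. It was -0.76 (-0.88 to -0.65) for eKO + rLif against eKO and 0.60 (0.45 to 0.75) for eKO + rLif against control, and neither was called.

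Esr1 (chromosome 10, 4612046 to 5003761, plus strand) had 1781, 2172 and 1411 counts or 70.6, 75.6 and 54.2 CPM in the same order. Its log2 ratio was 0.10 (0.01 to 0.19) for eKO against control and -0.48 (-0.58 to -0.38) for eKO + rLif against eKO, so all 3 libraries lay within a 2-fold range. Nr3c1 (chromosome 18, minus strand) had 520, 917 and 520 counts or 20.6, 31.9 and 20.0 CPM. The library labelled eKO was again the highest, with a log2 ratio of 0.63 (0.48 to 0.79) to control, and the other pair differed by -0.04 (-0.22 to 0.13).

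The balance of the receptors within a library does not depend on the scaling between libraries. Per base of exon, Pgr stood at 0.209 of Esr1 (0.190 to 0.230) in the library labelled control, 0.501 (0.470 to 0.534) in that labelled eKO and 0.412 (0.379 to 0.448) in that labelled eKO + rLif. The 3 intervals did not overlap, and Esr1 exceeded Pgr in every luminal library. Against Nr3c1, Pgr stood at 1.05 (0.931 to 1.18), 1.74 (1.60 to 1.89) and 1.64 (1.47 to 1.83) in the same order, where the last pair overlapped.

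The sum of the 11 stromal markers was 1.56-fold higher in the luminal library labelled eKO than in that labelled control. Pgr and Nr3c1 went the same way, and so did Esr1, with a smaller log2 ratio of 0.10 (0.01 to 0.19). The 11 markers ranged from a log2 ratio of -0.19 to 1.26 with a median of 0.33, and they did not share 1 order over the 3 libraries. Of these, 2 were called higher, the nuclear receptor gene Nr2f2 at 1.26 and the collagen gene Col3a1 at 1.14, where 17.2% of all genes were called. Col3a1 alone had 227, 501 and 320.2 CPM, more than the rest of the markers together added to the difference. The ratio of Pgr, 1.36, lay above that of each of the 11. Per 1000 stromal marker counts, Pgr had 27.4 (25.2 to 29.8), 45.3 (43.1 to 47.5) and 39.3 (36.8 to 42.0) counts in the control-, eKO- and eKO + rLif-labelled libraries, so it was higher in the last pair on this scale also. Nr3c1 had 24.0 (22.0 to 26.2), 23.9 (22.4 to 25.5) and 22.0 (20.2 to 24.0), with all 3 intervals overlapping. Esr1 had 82.3 (78.3 to 86.3), 56.6 (54.2 to 59.1) and 59.8 (56.6 to 63.1), highest in the library labelled control. Without Col3a1, added after seeing the data, Pgr had 37.3 (34.3 to 40.5), 72.4 (68.9 to 76.0) and 60.8 (56.8 to 65.0), in the same order, but Nr3c1 had 32.6 (29.9 to 35.6), 38.2 (35.8 to 40.8) and 34.1 (31.2 to 37.2), so that its libraries labelled control and eKO no longer overlapped. The part of stromal cells in these results was not tested, and in bulk tissue fewer cells of a type and less RNA per cell cannot be told apart.

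**Figure D2:**
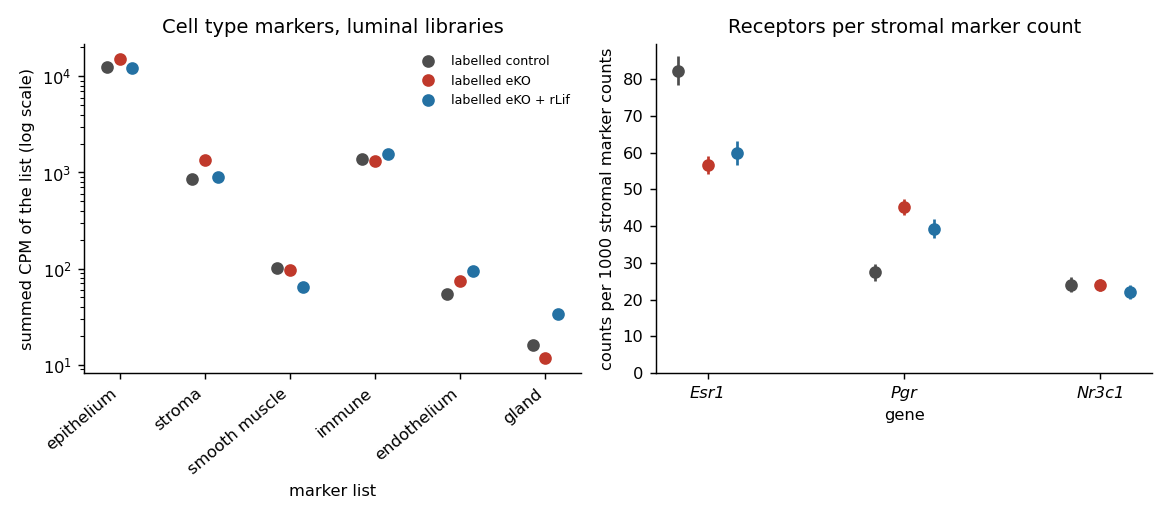
Left, summed CPM (log scale) of 6 cell type marker lists in the 3 luminal libraries, 1 point per library. Right, counts of Esr1, Pgr and Nr3c1 per 1000 stromal marker counts with 95% counting intervals, where Nr3c1 lies between 22.0 and 24.0 in all 3 libraries and Pgr lies at 27.4 in the library labelled control and 45.3 in that labelled eKO.

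Pgrmc1 (chromosome X, 36598225 to 36606079, plus strand), a heme-binding membrane protein linked to progesterone responses but not a nuclear receptor, was the most abundant of the 9 in the luminal layer. It had 19080, 22856 and 12068 counts or 756, 796 and 464 CPM. The libraries labelled control and eKO differed 1.05-fold, and the library labelled eKO + rLif was the lowest, with log2 ratios of -0.78 (-0.81 to -0.75) to eKO and -0.71 (-0.74 to -0.67) to control, neither called.

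Greb1 (chromosome 12, 16670615 to 16800886, minus strand), an early estrogen-induced gene whose product binds the estrogen receptor, was the least abundant. It had 106, 36 and 58 counts or 4.20, 1.25 and 2.23 CPM. The library labelled eKO was the lowest and that labelled control the highest, the reverse of the order of Pgr. The log2 ratio was -1.74 (-2.33 to -1.19) for eKO against control, a 3.35-fold difference. It was 0.83 (0.21 to 1.47) for eKO + rLif against eKO and -0.91 (-1.40 to -0.44) for eKO + rLif against control. At 36 to 106 counts these intervals are wide, and the last pair could not be placed on either side of the 2-fold limit.

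The cochaperones were both lowest in the luminal library labelled eKO + rLif. Fkbp4 (chromosome 6, 128430107 to 128438631, minus strand) had 21878, 17834 and 12638 counts or 867, 621 and 485 CPM, highest in the library labelled control. Fkbp5 (chromosome 17, 28399095 to 28486112, minus strand) had 1185, 1081 and 532 counts or 46.9, 37.6 and 20.4 CPM, in the same order. The log2 ratio of eKO + rLif to control was -0.84 (-0.87 to -0.80) for Fkbp4 and -1.20 (-1.35 to -1.05) for Fkbp5, and only Fkbp5 of the 9 genes passed the limit in that comparison. For eKO against control the ratios were -0.48 (-0.51 to -0.45) and -0.32 (-0.44 to -0.20).

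Within a library Fkbp4 exceeded Fkbp5 many times per base of exon. The ratio was 29.9 (28.2 to 31.7), 26.7 (25.1 to 28.4) and 38.4 (35.2 to 42.0) in the control-, eKO- and eKO + rLif-labelled libraries. The library labelled eKO + rLif stood above the others, with an interval that did not meet theirs. Blastocysts showed the same order of the 3 labels, at 25.8 (24.2 to 27.6), 23.5 (22.1 to 24.9) and 31.8 (29.7 to 34.1).

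The coactivators varied less. Ncoa1 (chromosome 12, 4247362 to 4477182, minus strand) had 346, 301 and 409 counts or 13.7, 10.5 and 15.7 CPM, lowest in the library labelled eKO. Its log2 ratio was -0.39 (-0.61 to -0.16) for eKO against control and 0.58 (0.37 to 0.80) for eKO + rLif against eKO. Ncoa3 (chromosome 2, 165992637 to 166073242, plus strand) had 537, 672 and 566 counts or 21.3, 23.4 and 21.7 CPM, and its 3 log2 ratios of 0.14, -0.11 and 0.03 all had intervals that included 0. The last of them became -0.15 when libraries were scaled by total counts alone. Ncoa3 exceeded Ncoa1 per base by 1.51 (1.32 to 1.73), 2.17 (1.89 to 2.50) and 1.35 (1.18 to 1.53), highest in the library labelled eKO.

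As a group, the 9 genes had a luminal median log2 ratio of 0.07 for the label eKO against control, where all genes had 0.00. For eKO + rLif against eKO the median was -0.48, with 7 of 9 below 0, where all genes had -0.01. For eKO + rLif against control it was -0.38, with 6 of 9 below 0, where all genes had 0.01. Scaling by total counts moved every luminal ratio by -0.11 in the former of these comparisons and by -0.18 in the latter.

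**Figure D3:**
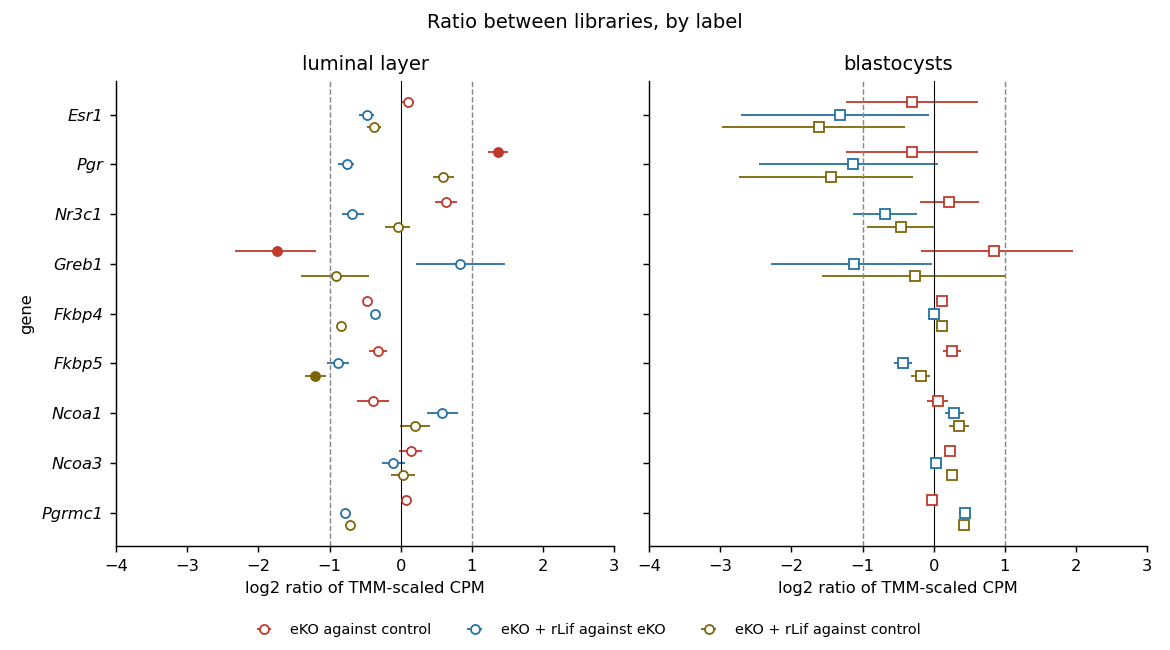
Log2 ratio of CPM between libraries of 1 tissue for each of the 9 genes, with 95% counting intervals as bars, dashed lines at a 2-fold difference and filled symbols for ratios whose whole interval lies beyond it. Pgr (1.36) and Greb1 (-1.74) for eKO against control and Fkbp5 (-1.20) for eKO + rLif against control are the filled symbols, all in the luminal layer.

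In blastocysts, 0 of the 9 genes were called in any of the 3 comparisons. The background there was 3.15% of 14873 genes for eKO against control, 3.75% for eKO + rLif against eKO and 4.94% for eKO + rLif against control. The genes with the most reads differed little. Fkbp4 had 15030, 16679 and 16645 counts in the control, eKO and eKO + rLif libraries, Ncoa3 4801, 5759 and 5831, and Ncoa1 776, 828 and 1010. Each of these log2 ratios lay between 0.01 and 0.35. Pgrmc1 had 2678, 2716 and 3653 counts and Fkbp5 942, 1149 and 846. In the eKO + rLif library Pgrmc1 was the highest of the 3, at 0.42 (0.35 to 0.49) to control, and Fkbp5 the lowest, at -0.18 (-0.32 to -0.05), so these genes went opposite ways there.

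Esr1 and Pgr were near the limit of detection in blastocysts, and Nr3c1 was low. Esr1 had 24, 20 and 8 counts, Pgr 24, 20 and 9, and Greb1 13, 24 and 11. Esr1 and Pgr were lowest in the eKO + rLif library, with log2 ratios to control of -1.61 (-2.98 to -0.41) and -1.44 (-2.73 to -0.29), wide intervals that reach across the 2-fold limit. Nr3c1 had 92, 110 and 68 counts, also lowest in that library, at -0.46 (-0.94 to 0.00). Immune transcripts were low in the same library. The 9 immune markers summed to 85.0, 141 and 30.1 CPM in the control, eKO and eKO + rLif libraries. Of these sums, Lyz2 alone took 51.2, 109 and 14.9 CPM. For eKO + rLif against control, 8 of the 9 immune markers lay below 0 and 1 above. Most single stromal markers were also lower in that library than in the control library, but their sum was nearly flat. They summed to 175, 179 and 169 CPM, of which Pdgfra, also made by the primitive endoderm of the embryo, took 123, 146 and 139.8 CPM. For eKO + rLif against control, 8 of the 10 stromal markers measured lay below 0, with a median log2 ratio of -1.20. Of these, 4 were called lower, where 4.94% of all genes were called either way. The median was -1.03 for eKO against control, where 2 were called lower, and -0.17 for eKO + rLif against eKO, where 0 were. Vim, the stromal intermediate filament, had 191, 72 and 100 counts. Whether maternal cells carried over with the embryos contributed to the receptor counts was not tested.

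Between the tissues, the 3 nuclear receptors and the 2 coactivators among the 9 genes were placed opposite to each other. A gene was taken to stand apart when its lowest library in 1 tissue exceeded its highest in the other more than 2-fold in TPM. The 3 libraries of a tissue are different conditions and not replicates, so this is a description. By this rule 3 of the 9 genes were higher in the luminal layer, where 17.9% of 17081 genes were, and 2 of 9 were higher in blastocysts, where 30.9% were. The remaining 4 did not stand apart. Receptors and coregulators outside the 9 did not all follow this split. The coregulator gene Ncoa7 had 16.1 to 24.9 TPM in the luminal layer and 0.863 to 1.74 TPM in blastocysts. The orphan receptor gene Esrra had 10.6 to 15.5 and 69.9 to 73.9 TPM in the same order.

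The luminal genes were the 3 nuclear receptors. Esr1 had 18.0 to 28.6 TPM in the luminal layer and 0.213 to 0.656 in blastocysts, a gap of 27.4-fold between the nearest libraries. Pgr had 5.98 to 13.6 against 0.151 to 0.411 TPM, a gap of 14.5-fold. Nr3c1 had 4.53 to 7.83 against 1.24 to 2.02 TPM, a gap of 2.24-fold, so the glucocorticoid receptor was the closest to even of the 3.

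The blastocyst genes were the coactivators. Ncoa3 had 75.3 to 89.2 TPM in blastocysts and 4.14 to 4.94 in the luminal layer, a gap of 15.2-fold, and Ncoa1 had 12.5 to 15.9 against 2.22 to 3.27 TPM, a gap of 3.82-fold. Ncoa3 exceeded Ncoa1 by 5.62 to 6.77 per base in the blastocyst libraries, above the 1.35 to 2.17 of the luminal ones. Fkbp4 and Fkbp5 were also higher in every blastocyst library than in any luminal library, but with gaps of 1.17-fold and 1.19-fold. Pgrmc1 was higher in every luminal library, with a gap of 1.58-fold. Greb1 overlapped between the tissues.

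**Figure D4:**
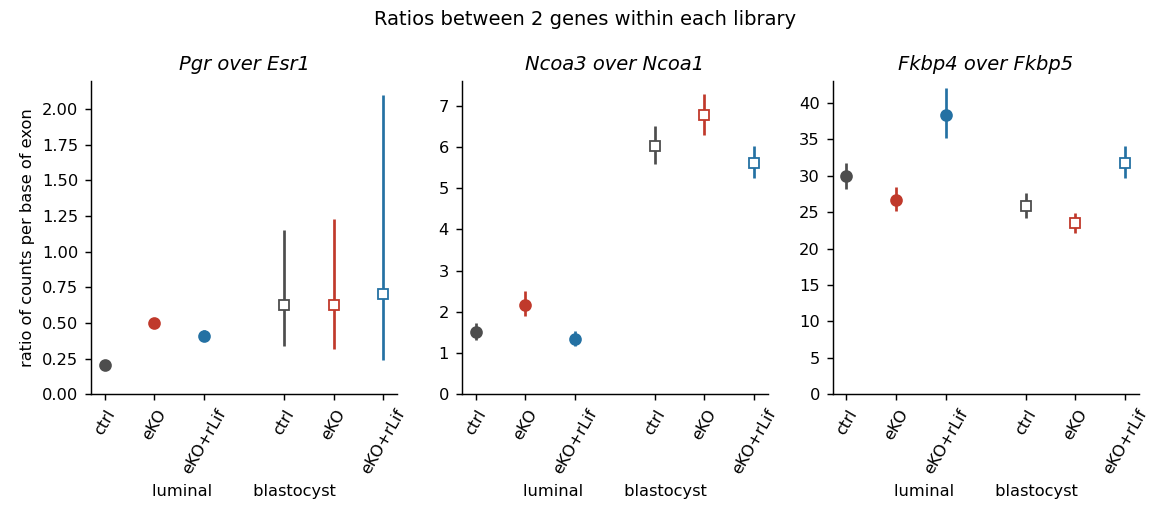
Ratio of counts per base of exon between 2 genes within each library, with 95% counting intervals as bars, luminal libraries as filled circles and blastocyst libraries as open squares. Pgr over Esr1 is lowest in the luminal library labelled control (0.209), Ncoa3 over Ncoa1 is 5.62 or more in every blastocyst library and 2.17 or less in every luminal library, and Fkbp4 over Fkbp5 is highest in the eKO + rLif library of each tissue.

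Other receptors for steroids were listed beside the 9. Esr2, the other estrogen receptor, had 0, 4 and 0 luminal counts in the control-, eKO- and eKO + rLif-labelled libraries and 1 to 2 in blastocysts, and the mineralocorticoid receptor gene Nr3c2 had 6 to 13 and 4 to 11. Of the estrogen-related orphan receptors, Esrra had 411 to 643 luminal and 1327 to 1424 blastocyst counts, Esrrb, a pluripotency factor, 0 to 4 and 943 to 1276, and Esrrg 0 to 7 and 0.

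The membrane progestin receptors held the only called genes of that list. Paqr8 had 798, 275 and 1839 luminal counts, lowest in the library labelled eKO and highest in that labelled eKO + rLif. Its log2 ratio was -1.72 (-1.93 to -1.52) for eKO against control and 2.88 (2.70 to 3.07) for eKO + rLif against eKO. The library labelled eKO, the highest for Pgr, was thus the lowest for Paqr8. Paqr5 had 1468, 2028 and 2747 luminal counts, with no call, and 18, 23 and 2 in blastocysts, where it was called lower in the eKO + rLif library at -3.20 (-6.35 to -1.14) to control. Paqr7 had 75 to 122 luminal and 8 to 16 blastocyst counts. Pgrmc2, the paralog of Pgrmc1, had 3437, 3124 and 3100 luminal counts and 1984 to 2116 in blastocysts. Of the 8 listed receptors measured in the luminal layer, 0 were called higher and 1 lower for eKO against control, where 17.2% of all genes were called. Their median log2 ratio was 0.04, or -0.14 with Esrrg, at 0 in 1 library, set at its bound.

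The chaperones that carry the receptors mostly stayed within the 2-fold limit. Of 16 genes of the Hsp90 machinery, 0 were called higher and 1 lower in the luminal layer for the label eKO against control, with a median log2 ratio of 0.03. The share of all luminal genes called was 17.2%, which applies to both lists here. The called gene was Bag1, a nucleotide exchange factor of Hsp70, with 18842, 9577 and 16656 counts and a log2 ratio of -1.16 (-1.20 to -1.13). In blastocysts 0 of 16 were called, and Hsp90ab1, the constitutive Hsp90, had 61000, 55976 and 67688 counts. Of 25 other coactivators and corepressors, 0 were called higher and 2 lower in the luminal layer, with a median of -0.02. They were Ppargc1a, with 353, 106 and 165 counts and a log2 ratio of -1.92 (-2.25 to -1.60), and its paralog Ppargc1b, with 33, 7 and 23 counts and -2.42 (-3.84 to -1.22), both coactivators of mitochondrial genes. In blastocysts 0 of 24 were called, where 3.15% of all genes were called for eKO against control.

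The genes that these receptors are known to regulate did not all move one way. Of 17 progesterone-responsive uterine genes, 4 were called higher and 4 lower for the label eKO against control, with a median log2 ratio of -0.17. Over all luminal genes, 17.2% were called either way. The retinoic acid hydroxylase gene Cyp26a1 had 136285, 2545 and 115011 counts, at -5.93 (-5.99 to -5.87) for eKO against control. Inhbb, an activin subunit gene, had 138, 2 and 27 counts, at -6.29 (-9.35 to -4.41), and Ihh, the hedgehog ligand through which epithelium signals to stroma, 18313, 4493 and 32353, at -2.21 (-2.26 to -2.17). Calb1, a calcium-binding protein gene, went the other way with 13579, 175456 and 30828 counts, at 3.51 (3.48 to 3.53). In each of these 4 the library labelled eKO stood at 1 end. They were named for the size of this ratio, so that place follows from the choice and says nothing about a likeness to Pgr.

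Of 17 estrogen-responsive genes, 2 were called higher and 5 lower, with a median of -0.57, or -0.46 with Lif at its bound. More of the 17 lay below 0 than above it, 13 against 4, where the median of all genes was 0.00. For this list and the next, the share called over all luminal genes was again 17.2%. The siderophore-binding gene Lcn2 had 4200, 110 and 8824 counts, at -5.44 (-5.73 to -5.17), and the complement gene C3 had 687, 50 and 515, at -3.97 (-4.41 to -3.55). Both were lowest in the library labelled eKO, among genes named for the size of this ratio. Igf1, the growth factor made largely by stroma, had 2697, 9625 and 3487 counts, at 1.65 (1.59 to 1.71), and Lif itself was the other gene called higher. Of 15 glucocorticoid-responsive genes, 3 were called higher and 4 lower, with a median of 0.40. Lcn2 is also on this list. Pdk4, a kinase of pyruvate dehydrogenase, had 79, 1 and 32 counts, at -6.49 (-11.81 to -3.97). Cebpd had 22069, 4754 and 59120, at -2.40 (-2.45 to -2.36), but its exons overlap another gene and its counts are uncertain. The phosphatase gene Dusp1 had 1067, 3874 and 3139 counts, at 1.67 (1.58 to 1.77).

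In blastocysts, 1 of 13 progesterone-responsive genes was called higher for eKO against control. Of 16 estrogen-responsive genes 1 was called higher and 1 lower, and of 16 glucocorticoid-responsive genes 1 higher. The share of all genes called was 3.15%. Calb1 was called higher among the 13 progesterone-responsive genes measured, with 49, 201 and 18 counts and a log2 ratio of 2.00 (1.54 to 2.48). Lcn2, which stands on both other lists, had 0, 64 and 13 counts and was at least 20.8-fold higher in the eKO library, and Igf1 was called lower with 139, 41 and 14 counts, at -1.80 (-2.34 to -1.29). The counts of Calb1 in blastocysts were highest in the eKO library, as were those of the luminal layer. For eKO + rLif against control, 0 of the 13 progesterone-responsive genes were called higher and 4 lower, with a median log2 ratio of -1.32. Of the estrogen-responsive genes 1 was called higher and 4 lower, and of the glucocorticoid-responsive genes 1 higher and 2 lower. Their medians were -0.79 and -0.35, or -0.69 and -0.23 with Lcn2 at its bound. In that comparison 4.94% of all genes were called. Whether maternal cells carried over with the embryos contributed to the counts of these genes, or to those of Paqr5, was not tested.

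**Figure D5:**
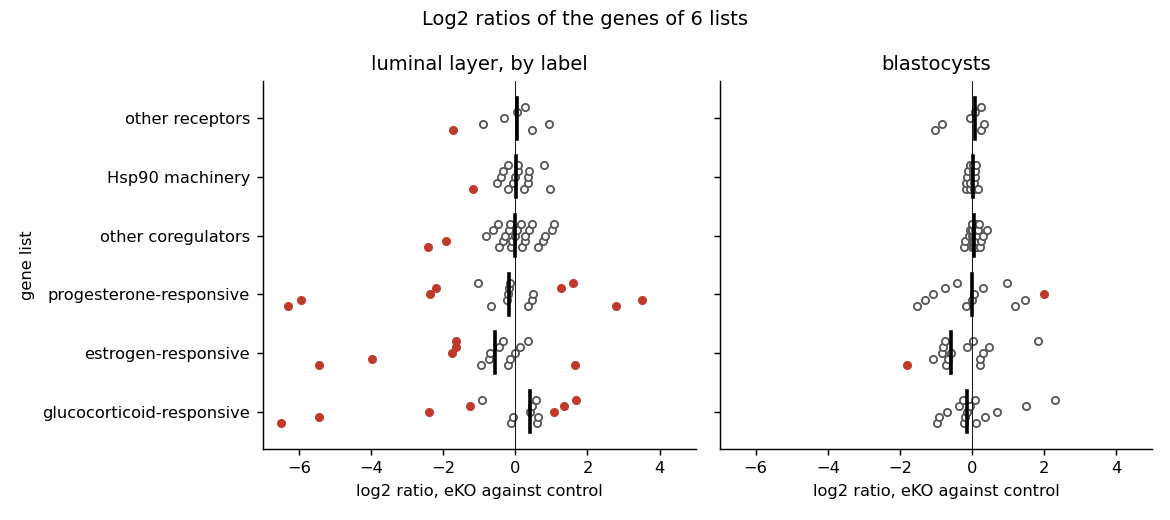
Log2 ratio of eKO against control for the genes of 6 lists in the luminal layer, by label, and in blastocysts, 1 circle per gene with a nonzero count in both libraries, red where called, and a vertical bar at the median of the list. The median lies at 0.03 for the Hsp90 machinery and at -0.57 for the estrogen-responsive genes in the luminal layer.

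Genes with the pattern nearest to the 3 called genes were found by distance over 4 log2 differences (eKO minus control and eKO + rLif minus eKO in each tissue) among 10387 genes. For Pgr they were Nudt22, with 510, 1508 and 791 luminal counts and a distance of 0.0568, E030030I06Rik at 0.157 and Abcc5 at 0.185. Nudt22 had 507, 462 and 362 counts in blastocysts, where Pgr had far fewer. For Greb1 they were Fam189b (0.162), Ispd (0.166) and Herpud2 (0.191), and for Fkbp5 they were Bicd2 (0.131), 2210404O09Rik (0.192) and Zfp493 (0.206). Bicd2 had 636, 550 and 278 luminal and 808, 936 and 667 blastocyst counts. A pseudocount of 2 CPM draws the differences of low genes towards 0, which bears on Greb1 and on the blastocyst values of Pgr.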

How the data were processed

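RNA was sequenced from the luminal layer and from blastocysts, with 1 pooled library for each of 6 groups, which were taken from the labels. The authors made SMART-seq v4 libraries, aligned reads with HISAT2 to GRCm38/mm10 and counted them per gene with featureCounts (Subread 2.0.0). The deposited values were raw whole-number counts whose totals differed by library, although the study's methods call them RPKM. The gene annotation release, the strand setting and the handling of multimapping reads were not given in the sources used here, so reads from pseudogenes or close paralogs of a named gene may have been lost or shared. No exon of the 9 genes overlapped another gene.

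Genes with at least 10 counts over the 3 libraries of a tissue were kept. CPM used TMM-scaled library sizes (edgeR 4.0.16, R 4.3.3). TPM was computed from counts and the exon length in the tables, without TMM, so its folds differ slightly from those of CPM. Exact 95% intervals were Clopper-Pearson for ratios and Poisson for single counts, and both cover counting error only. For a fold against 0 counts, that library was set to a floor of 3 counts. With 1 library a group no dispersion could be estimated, so no count test was run. The interval rule was tested on simulated data. The alternatives were other scalings, count minimums, fold limits, a 99% interval and other gaps between tissues. Leaving out single libraries was added after seeing the data.

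The 9 genes, the gene and marker lists and the motifs were chosen with earlier results of these data known. Named from each list were the called genes of eKO against control, at most the 4 farthest beyond the limit, or a gene with many counts where none was called, and the listed receptors, of which 1 is not reported here. Gper1, Acod1, Clca3a1, Cxcl15 and Spink1 were listed but not analysed here.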

Additional observations from a re-analysis of the deposited data

How the results depend on the processing

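All 162 ratios of the 9 genes under other scalings (DESeq2 size factors, total counts, upper quartile) kept their call by the interval rule, and no called ratio changed sign. With total counts, the ratios of Fkbp4 and Greb1 for the luminal labels eKO + rLif against control moved to -1.01 and -1.09, past the 2-fold limit, with intervals that still crossed it. The number of genes called depended on the fold limit. With a log2 limit of 2, 0 of the 9 genes were called for the luminal labels eKO against control and 0 for eKO + rLif against control. With a log2 limit of 0.5, 4 were called for eKO + rLif against eKO and 3 for eKO + rLif against control. Of the 9 genes, 8 were apart between the tissues with any gap and 3 with a 4-fold gap, in place of 5. TMM-scaled CPM in place of TPM gave 6. Leaving out 1 library at a time, chosen after seeing the data, gave 5 to 6. No count minimum, a minimum of 50 counts and a 99% interval left the numbers of the 9 genes called as they were. The numbers of all genes called moved more in blastocysts, where eKO against control went from 468 to 210 with a minimum of 50 counts and to 255 with a 99% interval. No paired analysis was possible because each group had 1 library. Depth limits Esr1, Pgr and Greb1 in blastocysts, at 8 to 24 counts per library.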

Other observations

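Among the 41 genes of the Hsp90 machinery and of the other coregulators, 8 (19.5%) had the order of Pgr in the luminal layer, highest in the library labelled eKO, then eKO + rLif, then control, where 20.5% of the 15694 genes measured had that order. None of the 4 named here, chosen after their values were seen, was called for eKO against control. Ep300, a histone acetyltransferase recruited by the p160 coactivators, had 674, 1608 and 933 counts in the control-, eKO- and eKO + rLif-labelled libraries, with a log2 ratio of 1.07 (0.94 to 1.20) for eKO against control. Med12, a Mediator subunit gene, had 126, 290 and 197 counts, at 1.02 (0.71 to 1.33). Dnaja1, an Hsp40 gene, had 15813, 34664 and 18360, at 0.95 (0.92 to 0.97), and Ptges3, the Hsp90 cochaperone that stabilises hormone-binding receptors, 8676, 17023 and 11859, at 0.79 (0.75 to 0.82).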
